A study of Mus musculus with 12 samples.

Results

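Death-receptor caspase signalling and necroptosis were examined through 7 genes, namely Ripk1, Ripk3, Mlkl, Fadd, Casp8, Cflar and Casp9. They were taken by symbol, from the RefSeq names matched to the accessions on the array, out of 20887 symbols with a matched probe. All 7 were among the 13169 genes tested, and none was lost to the filter on dim probes. Their 9 probes (3 for Cflar and 1 for each of the other genes) were well above background on all 12 arrays, and none was saturated. The list was drawn up with earlier results of these data known, so its make-up is no evidence of a pattern.

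The 12 one-colour arrays measured RNA of wild-type C57BL/6 peritoneal macrophages, immune cells of the abdominal cavity that take up debris and microbes. The LPS_IFNg_emodin group received lipopolysaccharide (LPS, a component of the bacterial cell wall) at 100 ng/ml, interferon gamma (IFNγ) at 20 ng/ml and emodin, a plant anthraquinone, at 50 µM. The LPS_IFNg group received LPS and IFNγ at the same concentrations without emodin, and the control group received vehicle. Each group had 4 arrays, and RNA was taken after 20 h. The labels give an age of 9 weeks and female sex for both stimulated groups, and an age of 8 weeks for the controls, of which replicates 1 and 2 are labelled female and replicates 3 and 4 male. Before treatment all groups were freed of cells that had not attached and were kept overnight without serum, and nothing in the labels ties an array to 1 animal or excludes pooled animals. P-values therefore measure the spread between these samples, which may be technical.

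Some features of the arrays touch every result below. The LPS_IFNg_emodin and LPS_IFNg arrays lay on 1 slide with 1 scan, and the 4 control arrays on another slide with another scan, so slide, scan, labelled age and stimulation cannot be told apart in the comparisons with control. Macrophages are the labelled cells, whereas the design text writes WBC PMN, an abbreviation it does not spell out. Of 10 matched macrophage markers, 9 were well above background on all LPS_IFNg_emodin arrays, and 10 on all LPS_IFNg and all control arrays. The exception was Timd4, a marker of resident peritoneal macrophages, which was on none of the LPS_IFNg_emodin arrays. Of 9 neutrophil markers, 5 were on all LPS_IFNg_emodin arrays, 4 on all LPS_IFNg arrays and 6 on all control arrays. Replicate 3 of LPS_IFNg_emodin and replicate 3 of LPS_IFNg, both labelled female, had signal of the Y-linked Ddx3y and Eif2s3y and none of Xist above background. Control replicates 3 and 4, labelled male, had Xist and no Y-linked signal, so these 4 arrays went against their labels. Values of the 7 genes are given below also without the 2 stimulated arrays and, separately, without the 2 control arrays, and no fit left out all 4 together. The 75th percentile of the signal was 370 to 466 on LPS_IFNg_emodin arrays, 637 to 795 on LPS_IFNg arrays and 633 to 810 on control arrays, and all levels below are log2 signals relative to that percentile of the same array.

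The 7 genes encode a switch between survival, apoptosis and necroptosis. Receptors of the tumour necrosis factor family and Toll-like receptors recruit the kinase RIPK1. This kinase can assemble with the adaptor FADD, the initiator protease caspase-8 and its relative cFLIP, the product of Cflar. Where caspase-8 activity is held back, RIPK1 and the kinase RIPK3 can form a filament in which RIPK3 phosphorylates MLKL, and phosphorylated MLKL then breaks the plasma membrane. Caspase-9 is the initiator protease of the separate mitochondrial route, activated on the apoptosome. In macrophages these proteins are known to decide between inflammatory gene expression and death after LPS and interferon. The arrays measured RNA and no protein, phosphorylation or death.

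The 300 bases around the annotated starts of Ripk3, Mlkl and Cflar are shown because these genes had the largest differences, and those of Ripk1 because its window held the most marked matches, although Casp9 differed more. Such windows are regions in which interferon and NF-κB elements are commonly sought. The sequences are those of RefSeq on assembly GRCm38.p6, run from 250 bases before to 50 bases after the start site on the strand of the gene, and matched all 7 genes, with 2 starts for Ripk1 and so 8 promoters. Capitals mark matches on either strand to the core of the interferon-stimulated response element, searched as a pair of GAAA runs with any 2 bases between them, and to TTCNNNGAA, the core of the gamma-activated site. The promoter of the downstream start of Ripk1 is the one of the 2 that held such matches.
Ripk3, chr14:55788808-55789107, minus strand: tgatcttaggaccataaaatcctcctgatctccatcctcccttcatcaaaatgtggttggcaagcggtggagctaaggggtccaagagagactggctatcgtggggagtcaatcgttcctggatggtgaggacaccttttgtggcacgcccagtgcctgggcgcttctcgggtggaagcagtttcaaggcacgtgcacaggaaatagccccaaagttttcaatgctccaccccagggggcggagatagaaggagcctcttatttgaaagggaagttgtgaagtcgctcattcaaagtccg
Mlkl, chr8:111338156-111338455, minus strand: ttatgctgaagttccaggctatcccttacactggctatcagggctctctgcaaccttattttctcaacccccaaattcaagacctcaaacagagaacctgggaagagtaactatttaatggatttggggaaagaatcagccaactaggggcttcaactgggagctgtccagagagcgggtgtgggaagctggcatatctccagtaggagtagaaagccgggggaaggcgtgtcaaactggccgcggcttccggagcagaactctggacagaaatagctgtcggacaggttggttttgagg
Cflar, chr1:58711241-58711540, plus strand: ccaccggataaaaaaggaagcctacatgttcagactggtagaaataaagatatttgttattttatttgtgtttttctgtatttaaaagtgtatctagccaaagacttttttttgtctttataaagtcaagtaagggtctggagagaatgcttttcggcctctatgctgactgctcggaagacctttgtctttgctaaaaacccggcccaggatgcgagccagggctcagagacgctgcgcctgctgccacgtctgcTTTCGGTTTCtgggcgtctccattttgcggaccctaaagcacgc
Ripk1, chr13:34002624-34002923, plus strand: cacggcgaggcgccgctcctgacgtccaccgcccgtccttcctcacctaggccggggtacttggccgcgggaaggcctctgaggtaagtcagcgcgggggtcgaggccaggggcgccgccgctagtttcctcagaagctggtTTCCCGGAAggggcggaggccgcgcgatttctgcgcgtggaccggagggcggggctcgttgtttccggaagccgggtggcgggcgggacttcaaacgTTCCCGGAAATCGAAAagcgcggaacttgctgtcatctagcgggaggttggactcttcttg

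Counted from the start site, the Ripk1 window held TTCNNNGAA at -108 to -100 and at -11 to -3 and the interferon element core at -5 to 5, so that the last of these overlap and share capitals. The Cflar window held the interferon element core on the opposite strand, at 7 to 16. The Ripk3 and Mlkl windows had no capitals. The interferon element core was thus in 2 of the 8 promoters and in 3.44% of all 32851 promoters of this length, and TTCNNNGAA in 1 of 8 and in 8.3% of all. The consensus κB decamer was in 0 of 8 and in 0.155% of all. In all, 9 patterns were tried on these promoters, and the choice of which to mark was made after their matches had been seen. Of the other patterns, the longer interferon-stimulated response element was in 0 of 8 (0.271% of all) and GAAANGAAA in 1 of 8, that of Casp8 (3.17% of all). The gamma-activated site core with a 4-base spacer was in 2 of 8, Ripk1 and Fadd (6.95% of all). The κB outline with 5 free bases was in 4 of 8 (50.8% of all), the degenerate κB consensus in 0 of 8 (4.51% of all) and GGAA in 8 of 8 (96% of all). A match is a run of letters in this window and not a bound site.

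With LPS plus IFNγ, all 7 genes differed from control by the limma test at an adjusted p under 0.05. The kinases and the membrane effector of necroptosis (Ripk1, Ripk3 and Mlkl), Casp8 and Cflar rose, while Fadd and Casp9 fell. The rises of Mlkl and Cflar were the largest, at 11.8-fold and 11.9-fold. Of all genes tested, 69% were called in this comparison, 33.8% up and 35.2% down, so a call alone says little, and the members were also described by size. Their median log2 difference was 0.83, against -0.04 over all genes tested. The groups did not overlap for any of the 7, as was the case for 64.3% of all genes.

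With emodin added, and relative to each array's own signal, the 7 genes split into those that were lower than with LPS plus IFNγ alone and those that did not pass the test. Ripk3 fell to 0.221-fold of its LPS_IFNg level, Mlkl to 0.495-fold and Casp8 to 0.805-fold, and the Casp8 call was lost with the replicate number as a block (limma adjusted p = 0.0502). Ripk1, Fadd, Cflar and Casp9 did not pass the test, and no member rose. Of all genes tested, 71.8% were called in this comparison, 35.1% up and 36.8% down. The median log2 difference of the 7 was -0.01, as was that of all genes. The groups did not overlap for 2 members, Ripk3 and Mlkl, against 67.4% of all genes.

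Against control, the LPS_IFNg_emodin group had higher Ripk1, Mlkl and Cflar, lower Ripk3, Fadd and Casp9, and a Casp8 difference that did not pass the test. Of all genes, 78.1% were called here, 39% up and 39.2% down, and the median log2 difference was 0.17 for the 7 genes and 0 for all genes. The groups did not overlap for 6 of the 7, against 72.3% of all genes. The 3 comparisons share arrays in pairs, so their values are given side by side and are not independent of each other.

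**Figure D1:**
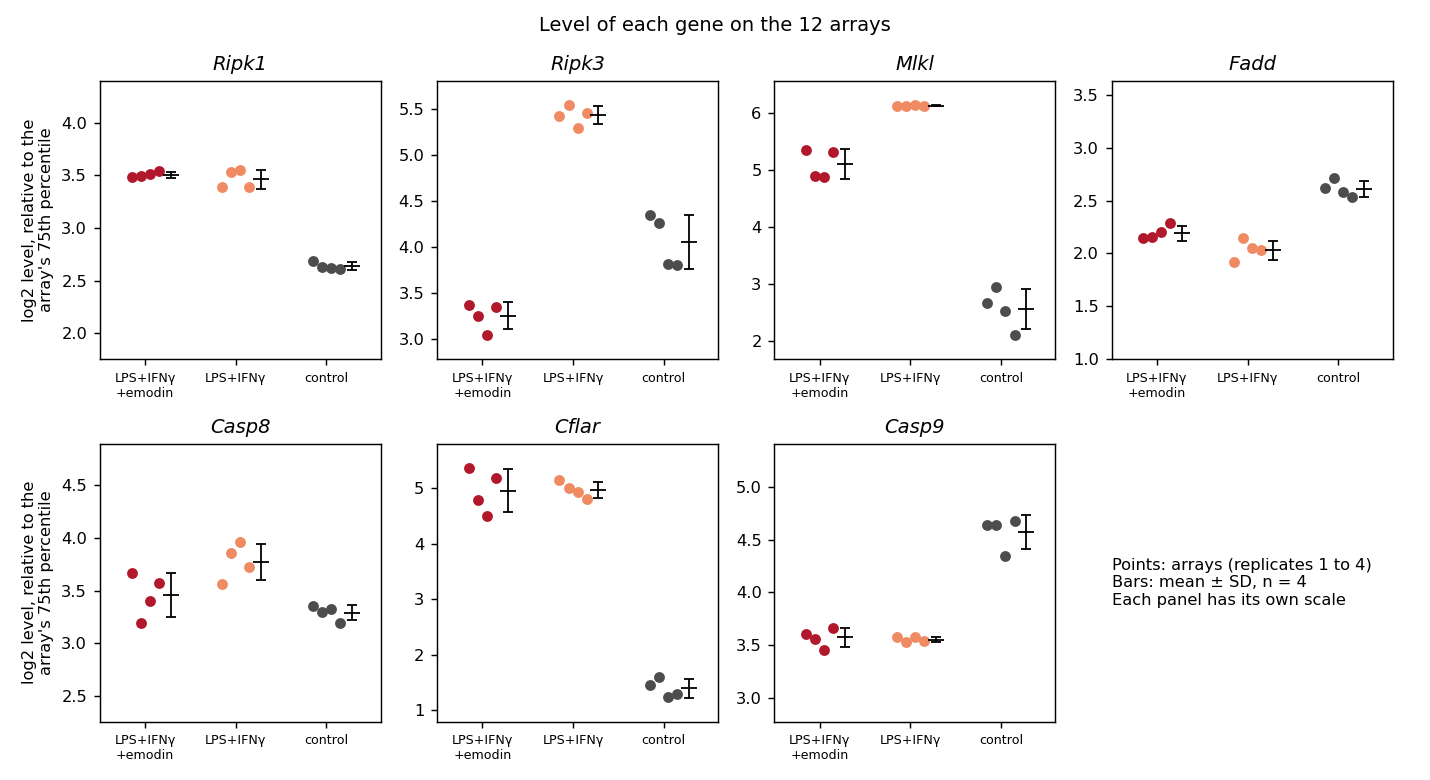
Level of each gene on each array (points, replicates 1 to 4) as log2 signal relative to the array's 75th percentile, with the mean and SD of 4 arrays, for LPS+IFNγ+emodin, LPS+IFNγ and control from left to right. The LPS+IFNγ+emodin arrays all lie below the control arrays for Ripk3 (3.04 to 3.37 against 3.8 to 4.34), Fadd and Casp9. Of these, only Ripk3 has LPS+IFNγ arrays above its control arrays. Cflar and Ripk1 lie at like levels in both stimulated groups.

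**Figure D2:**
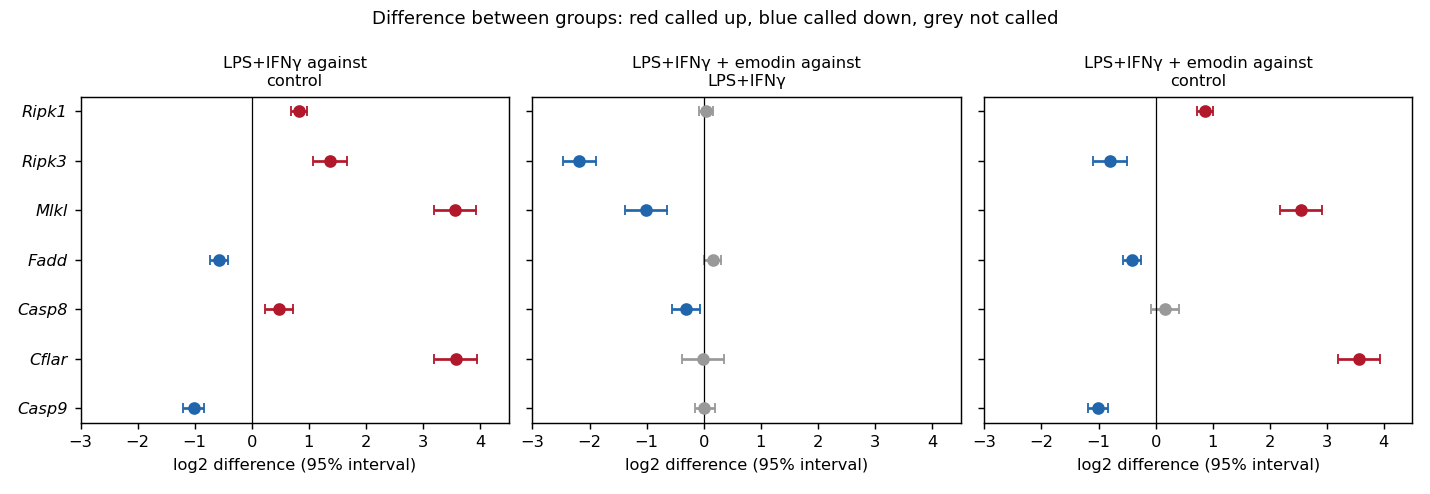
Log2 difference of each gene (points) with its 95% confidence interval (bars) in the 3 comparisons, from limma on 12 arrays. In the comparison of LPS+IFNγ+emodin with LPS+IFNγ, Ripk3, Mlkl and Casp8 are called down and the intervals of Ripk1, Cflar and Casp9 include 0.

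Ripk3 encodes the kinase that phosphorylates MLKL and is needed for canonical necroptosis. Its log2 levels were 3.37, 3.25, 3.04 and 3.34 on LPS_IFNg_emodin arrays, 5.42, 5.54, 5.29 and 5.45 on LPS_IFNg arrays and 4.34, 4.26, 3.81 and 3.8 on control arrays. The 3 groups did not overlap, with LPS_IFNg highest and LPS_IFNg_emodin lowest. With LPS plus IFNγ, Ripk3 was higher than in control by 1.37 ± 0.13 (log2 difference ± SE, 4 arrays per group), a 2.59-fold difference with a limma adjusted p of 1.97e-06. With emodin it fell by 2.18 ± 0.13 relative to LPS_IFNg (limma adjusted p = 4.63e-08), and 7.06% of all genes had a larger absolute difference in that comparison. Relative to control it fell by 0.8 ± 0.13 with emodin (limma adjusted p = 0.000133). No other member was called up by LPS plus IFNγ and called down against control when emodin was present.

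Without the replicate 3 arrays that went against their labels, the Ripk3 difference was -2.15 between LPS_IFNg_emodin and LPS_IFNg (limma adjusted p = 1.52e-06) and 1.42 between LPS_IFNg and control (limma adjusted p = 1.22e-05). Without control replicates 3 and 4 it was 1.13 between LPS_IFNg and control (limma adjusted p = 1.34e-05). The Ripk3 level was lower on those 2 control arrays than on control replicates 1 and 2. Across every processing alternative tried, the difference between LPS_IFNg_emodin and LPS_IFNg stayed between -2.84 and -2.11, with a highest limma adjusted p of 2.93e-05.

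Mlkl encodes the pseudokinase that executes necroptosis at the membrane. Its log2 levels were 5.35, 4.89, 4.87 and 5.31 on LPS_IFNg_emodin arrays, 6.11, 6.12, 6.13 and 6.12 on LPS_IFNg arrays and 2.67, 2.94, 2.53 and 2.11 on control arrays. The groups did not overlap, and both stimulated groups were well above control. The LPS_IFNg difference from control was 3.56 ± 0.16 (limma adjusted p = 3.09e-09), and 2.97% of all genes had a larger one. With emodin Mlkl fell by 1.01 ± 0.16 relative to LPS_IFNg (limma adjusted p = 0.000155), but it remained 2.54 ± 0.16 above control (5.83-fold, limma adjusted p = 3.42e-08). Leaving out replicate 3 of both stimulated groups gave -0.93 between LPS_IFNg_emodin and LPS_IFNg (limma adjusted p = 0.00208), and leaving out control replicates 3 and 4 gave 3.31 between LPS_IFNg and control (limma adjusted p = 1.14e-07). The 4 LPS_IFNg arrays had an SD of 0.01 for Mlkl, against 0.26 on the LPS_IFNg_emodin arrays, and the probe was not saturated on any array.

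Ripk1 encodes the kinase and scaffold shared by the survival, apoptotic and necroptotic branches. Its log2 levels were 3.48, 3.49, 3.51 and 3.54 on LPS_IFNg_emodin arrays, 3.39, 3.53, 3.55 and 3.39 on LPS_IFNg arrays and 2.69, 2.63, 2.62 and 2.61 on control arrays. The 2 stimulated groups overlapped, and both lay above every control array. The rise was 0.83 ± 0.06 in LPS_IFNg relative to control (1.77-fold, limma adjusted p = 1.81e-07) and 0.87 ± 0.06 in LPS_IFNg_emodin relative to control (1.82-fold, limma adjusted p = 6.97e-08). Between LPS_IFNg_emodin and LPS_IFNg the difference was 0.04, with a 95% confidence interval of -0.09 to 0.17 (limma adjusted p = 0.563). The LPS_IFNg difference from control was 0.79 without replicate 3 of both stimulated groups and 0.8 without control replicates 3 and 4 (limma adjusted p of 3.88e-06 and 1.05e-05).

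Fadd encodes the adaptor that brings caspase-8 to death receptors. Its log2 levels were 2.14, 2.15, 2.2 and 2.29 on LPS_IFNg_emodin arrays, 1.92, 2.14, 2.05 and 2.03 on LPS_IFNg arrays and 2.62, 2.71, 2.58 and 2.53 on control arrays. All stimulated arrays lay below all control arrays, and the stimulated groups touched at 2.14. Fadd fell by 0.58 ± 0.07 with LPS plus IFNγ (limma adjusted p = 1.39e-05) and by 0.42 ± 0.07 with emodin added, both relative to control (limma adjusted p = 0.00015 for the second). Between LPS_IFNg_emodin and LPS_IFNg it differed by 0.16, with a 95% confidence interval of 0.01 to 0.31 and a limma adjusted p of 0.0549. That difference passed the test with quantile scaling (0.18, limma adjusted p = 0.0221) and with the deposited value table (0.17, limma adjusted p = 0.029). The deposited values are nearly those of quantile scaling, so the second is no separate check of the Fadd difference. It also passed without LPS_IFNg replicate 2 (0.2, limma adjusted p = 0.0377) and without control replicate 4 (0.16, limma adjusted p = 0.0495). The Fadd difference between LPS_IFNg and control was -0.58 without replicate 3 of both stimulated groups and -0.63 without control replicates 3 and 4 (limma adjusted p of 0.000148 and 0.0001), and that between LPS_IFNg_emodin and LPS_IFNg was 0.17 and 0.16 (limma adjusted p of 0.121 and 0.0514).

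Casp8 encodes the initiator protease that cleaves RIPK1 and RIPK3 and so restrains necroptosis. Its log2 levels were 3.67, 3.19, 3.4 and 3.57 on LPS_IFNg_emodin arrays, 3.56, 3.86, 3.96 and 3.72 on LPS_IFNg arrays and 3.35, 3.3, 3.33 and 3.19 on control arrays. The LPS_IFNg arrays lay above all control arrays, and the LPS_IFNg_emodin arrays overlapped both other groups. Casp8 rose by 0.48 ± 0.11 with LPS plus IFNγ relative to control (1.39-fold, limma adjusted p = 0.00244). With emodin it fell by 0.31 ± 0.11 relative to LPS_IFNg (limma adjusted p = 0.0254), and the difference from control was 0.17 with a 95% confidence interval of -0.08 to 0.41 (limma adjusted p = 0.196).

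The Casp8 fall between LPS_IFNg_emodin and LPS_IFNg lost its call under several alternatives, which those of Ripk3 and Mlkl did not. With the replicate number as a block it was -0.31 with a limma adjusted p of 0.0502 on 12 arrays and 0.109 on the 8 arrays compared. It was -0.23 (limma adjusted p = 0.14) without replicate 3 of both stimulated groups. Left out singly, LPS_IFNg_emodin replicate 2 gave -0.23 (limma adjusted p = 0.079), LPS_IFNg_emodin replicate 3 gave -0.29 (limma adjusted p = 0.0581), LPS_IFNg replicate 2 gave -0.29 (limma adjusted p = 0.0647) and LPS_IFNg replicate 3 gave -0.25 (limma adjusted p = 0.0768). The difference from control with emodin passed the test without LPS_IFNg_emodin replicate 2 (0.25, limma adjusted p = 0.0467). The Casp8 rise in LPS_IFNg over control was 0.42 without replicate 3 of both stimulated groups and 0.45 without control replicates 3 and 4 (limma adjusted p of 0.0122 and 0.0224).

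Cflar encodes cFLIP, which pairs with caspase-8 and limits its activity. On its brightest probe, A_55_P1983468, log2 levels were 5.37, 4.79, 4.5 and 5.19 on LPS_IFNg_emodin arrays, 5.15, 5.01, 4.93 and 4.8 on LPS_IFNg arrays and 1.46, 1.6, 1.24 and 1.29 on control arrays. The stimulated groups overlapped fully and stood far above control. Cflar rose by 3.57 ± 0.17 in LPS_IFNg relative to control (limma adjusted p = 3.6e-09) and by 3.57 ± 0.17 in LPS_IFNg_emodin relative to control (limma adjusted p = 2.24e-09). The difference between LPS_IFNg_emodin and LPS_IFNg was -0.01, with a 95% confidence interval of -0.38 to 0.36 (limma adjusted p = 0.968), and the SD was 0.39 with emodin and 0.15 without. Without replicate 3 of both stimulated groups Cflar differed by 3.59 between LPS_IFNg and control and by 0.13 between LPS_IFNg_emodin and LPS_IFNg (limma adjusted p of 3.33e-08 and 0.495), and without control replicates 3 and 4 by 3.44 between LPS_IFNg and control (limma adjusted p = 7.8e-07).

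Each Cflar probe was also tested on its own, since probes of a gene can report different transcripts. On A_52_P226929 the log2 levels were 3.8, 3.7, 3.49 and 3.54 on LPS_IFNg_emodin arrays, 3.72, 4.12, 4.13 and 3.86 on LPS_IFNg arrays and 1.07, 0.93, 0.89 and 1.17 on control arrays. On A_55_P1983459 they were 2.49, 2.4, 2.25 and 2.03 on LPS_IFNg_emodin arrays, 1.88, 2.36, 2.34 and 2.12 on LPS_IFNg arrays and -0.92, -1.13, -1.09 and -0.84 on control arrays. Each probe placed all stimulated arrays above all control arrays, with LPS_IFNg differences from control of 3.57, 2.94 and 3.17 for A_55_P1983468, A_52_P226929 and A_55_P1983459, and all 3 were called.

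Between LPS_IFNg_emodin and LPS_IFNg the probes did not give 1 answer. A_52_P226929 was called lower with emodin at -0.32 (limma adjusted p = 0.0254 over all kept probes), while A_55_P1983468 at -0.01 and A_55_P1983459 at 0.12 were not called. Whether the probes differed from each other was tested directly in 6 exact two-sided permutation tests, 3 pairs in 2 comparisons with 4 arrays per group. Between A_52_P226929 and A_55_P1983459 the difference in response was -0.44 with emodin relative to LPS_IFNg and -0.23 with LPS_IFNg relative to control, and between A_52_P226929 and A_55_P1983468 it was -0.63 with LPS_IFNg relative to control. These 3 had p = 0.0286 in the exact permutation test, the smallest that 4 against 4 arrays allow, and an adjusted p of 0.0572. With that floor, a pair could pass after adjustment over the 6 tests only if at least 4 of them reached it, so the adjusted result says little. The other 3 had exact permutation p of 0.114 to 0.657. The array annotation gives A_52_P226929 and A_55_P1983459 the same RefSeq transcript and A_55_P1983468 another. Which Cflar transcripts each probe reports was not analysed further here.

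**Figure D3:**
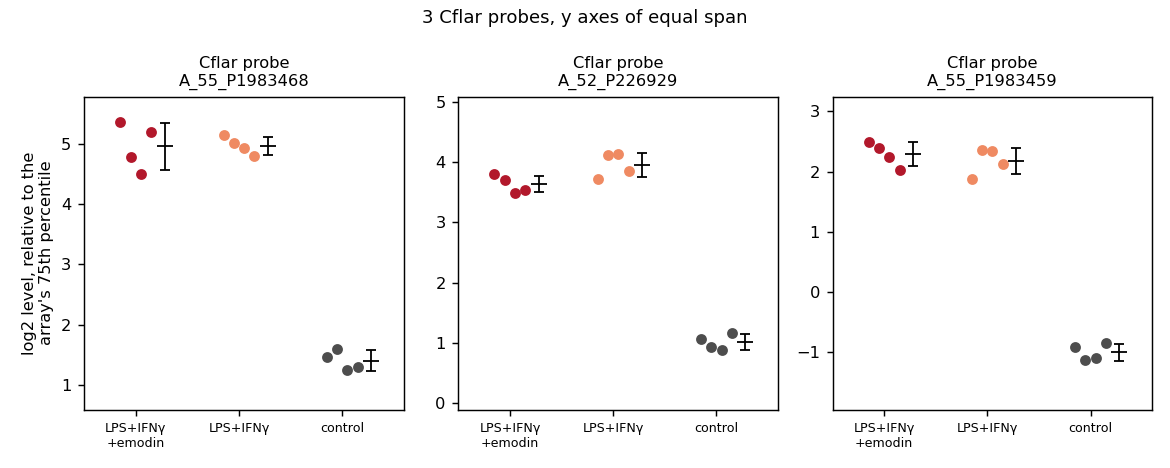
Level of the 3 Cflar probes on each array (points, replicates 1 to 4) as log2 signal relative to the array's 75th percentile, with mean and SD of 4 arrays, for LPS+IFNγ+emodin, LPS+IFNγ and control from left to right. The y axes have equal span but different ranges, and each probe is higher in both stimulated groups than in control, by 3.57, 2.94 and 3.17 in LPS+IFNγ from left to right.

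Casp9 encodes the initiator protease of the apoptosome. Its log2 levels were 3.6, 3.56, 3.45 and 3.66 on LPS_IFNg_emodin arrays, 3.57, 3.53, 3.57 and 3.54 on LPS_IFNg arrays and 4.64, 4.64, 4.34 and 4.68 on control arrays. The stimulated groups overlapped and lay below all control arrays, of which replicate 3 was the lowest. Casp9 fell by 1.02 ± 0.08 with LPS plus IFNγ (0.493-fold, limma adjusted p = 3.69e-07) and by 1.01 ± 0.08 with emodin added (limma adjusted p = 2.43e-07), both relative to control. Between LPS_IFNg_emodin and LPS_IFNg it differed by 0.01, with a 95% confidence interval of -0.16 to 0.19 (limma adjusted p = 0.884). The difference between LPS_IFNg and control was -1.03 without replicate 3 of both stimulated groups and -1.08 without control replicates 3 and 4 (limma adjusted p of 5.38e-06 and 1.07e-06).

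**Figure D4:**
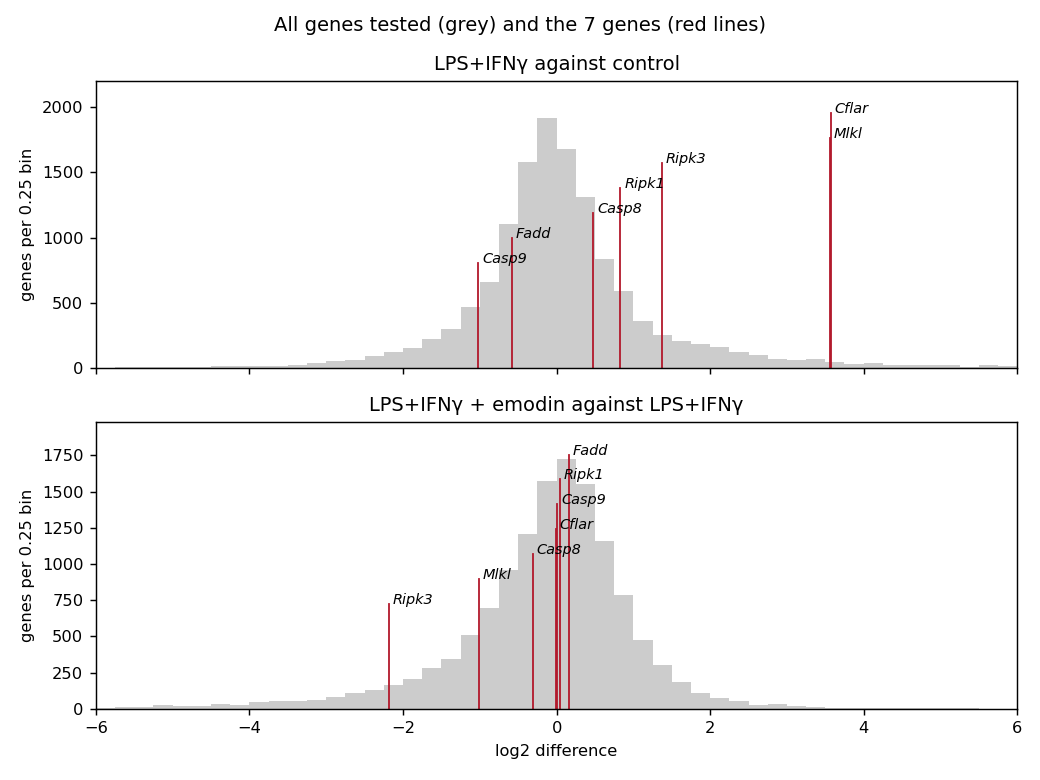
Number of genes (grey bars) per 0.25-wide bin of log2 difference over all 13169 genes tested, with the 7 genes as red lines whose height only separates the labels. With LPS+IFNγ against control Mlkl (3.56) and Cflar (3.57) lie in the right tail, and with LPS+IFNγ+emodin against LPS+IFNγ Ripk3 (-2.18) lies in the left tail.

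The directions between LPS_IFNg_emodin and LPS_IFNg are relative to each array's own signal. The 75th percentile was lower on LPS_IFNg_emodin arrays by 0.76 on the log2 scale, while the mean of the 7 spike-in RNAs well above background on all arrays differed by -0.09. Scaled to all 10 spike-in RNAs, which are added in a fixed mix, the median of all genes was -0.57, all 7 members were called lower with emodin, and 1550 genes were called up and 8099 down, against 4617 and 4840 on the main scale. On that scale Ripk1 was at -0.52, Fadd at -0.4, Casp9 at -0.55 and Cflar at -0.57, against the -0.57 of the median gene, while Ripk3 was at -2.74 and Mlkl at -1.58. The cause of the lower signal relative to the spike-ins was not tested. Fewer cells and less RNA per cell, among other causes, cannot be told apart in these bulk samples. The spike-ins were not used for the comparisons with control, because their mean log2 signal was 13.29 and 13.38 in the stimulated groups and 10.78 in control.

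Marker genes of other peritoneal cells moved with these comparisons. Of 11 mesothelial and fibroblast markers, 5 were well above background on all LPS_IFNg_emodin arrays, 8 on all LPS_IFNg arrays and 10 on all control arrays. Their summed signal, in multiples of the array's 75th percentile, was 12.7 to 41.5 on LPS_IFNg_emodin arrays, 83.2 to 161 on LPS_IFNg arrays and 20.5 to 88.3 on control arrays. The defining markers Upk3b, Krt8 and Pdgfra were on none of the LPS_IFNg_emodin arrays, and Upk3b and Lum on none of the LPS_IFNg arrays. In the same comparison Ripk3, Mlkl and Casp8 were called lower with emodin, whereas Ripk1, Fadd, Cflar and Casp9 were not called. Whether these cells had a part in that was not tested. The 6 B cell markers were also lower with emodin, with summed signals of 0.27 to 0.415 on LPS_IFNg_emodin arrays, 0.739 to 2.12 on LPS_IFNg arrays and 1.14 to 2.48 on control arrays, and 0, 2 and 4 of them were on all arrays of those groups. Cd79a and Ms4a1 were on none of the LPS_IFNg_emodin arrays.

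The 7 T and NK cell markers moved with stimulation, with summed signals of 9.83 to 13.7 on LPS_IFNg_emodin arrays, 10 to 11.7 on LPS_IFNg arrays and 4.22 to 4.78 on control arrays, although 2 of the 7 were on all arrays of each group and Cd8a was on none. The macrophage markers summed to 536 to 643 on LPS_IFNg_emodin arrays, 451 to 523 on LPS_IFNg arrays and 658 to 670 on control arrays. The neutrophil markers summed to 31.5 to 38.8 on LPS_IFNg_emodin arrays, 26 to 31.2 on LPS_IFNg arrays and 28.9 to 41.9 on control arrays. The 6 mast cell markers overlapped between all groups, at 0.585 to 1.6 on LPS_IFNg_emodin arrays, 0.554 to 1.19 on LPS_IFNg arrays and 0.525 to 1.73 on control arrays. The part of any of these cells in the differences of the 7 genes was not tested.

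The genes upstream of RIPK1, ligands and receptors, were mostly higher with LPS plus IFNγ. Of 13 tested genes of the TNF and death receptor complex, 10 rose, 2 fell and 1 did not pass the test, and their median log2 difference was 1.09 (33.8% up and 35.2% down over all genes, whose median was -0.04). Tnf, the ligand of TNF receptors, rose by 6.26 ± 0.11 and the death receptor Fas by 3.02 ± 0.10 (limma adjusted p = 1.4e-12 and 2.48e-10). Tnfsf10, the ligand TRAIL, was on none of the LPS_IFNg_emodin or control arrays and passed the filter on dim probes only through LPS_IFNg, so that its differences follow from the filter and are given as bounds with no test, at least 24.6-fold higher in LPS_IFNg than in control. Of the other 12 genes of the list, 9 rose, 2 fell and 1 did not pass the test, with a median of 1.01. The TNF receptor Tnfrsf1a rose by 1.25 ± 0.08 (limma adjusted p = 3.26e-08). Tnfrsf25 and Fasl of this list did not pass the filter on dim probes and were not tested.

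With emodin, 3 of the 13 rose, 6 fell and 4 did not pass the test relative to LPS_IFNg, with a median of -0.08 (35.1% up and 36.8% down over all genes, whose median was -0.01). Without Tnfsf10, which was at least 15.9-fold lower, 3 of 12 rose, 5 fell and 4 did not pass, with a median of -0.06. Tlr3, the receptor for double-stranded RNA, was on none of the LPS_IFNg_emodin arrays and was at least 6.17-fold lower than in LPS_IFNg (limma adjusted p = 1.76e-08). Tlr4, the LPS receptor, fell by 2.24 ± 0.15 (limma adjusted p = 9.48e-08). Ticam1, which encodes TRIF, the adaptor that links both of these receptors to RIPK1 and RIPK3, rose by 1.81 ± 0.10 (limma adjusted p = 2.21e-08). Tnfrsf1a was at -0.04 (limma adjusted p = 0.636). With the spike-ins, 1 of the 13 was higher and 10 lower, with a median of -0.65. On that scale 1550 of all 13169 genes were up and 8099 down, with a median of -0.57. Fas, at 0.53 ± 0.10 on the main scale, was at -0.04 with the spike-ins.

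Genes that attach or remove ubiquitin on RIPK1, which holds it in its survival role, were mostly higher with LPS plus IFNγ. With emodin their median lay above that of all genes on the main and the spike-in scale, while its sign depended on the scaling. With LPS plus IFNγ, 11 of 15 rose, 2 fell and 2 did not pass the test, with a median of 0.49 against -0.04 over all genes (33.8% up, 35.2% down), led by the deubiquitinase gene Tnfaip3 (2.75 ± 0.08, limma adjusted p = 1.12e-10), the ligase gene Birc3 (2.16 ± 0.08, limma adjusted p = 4.58e-10) and Rnf31 of the linear ubiquitin ligase (2.05 ± 0.10, limma adjusted p = 6.6e-09). With emodin relative to LPS_IFNg, 9 rose, 1 fell and 5 did not pass the test, with a median of 0.48 (35.1% up and 36.8% down over all genes, whose median was -0.01). The largest were Ube2d3, a ubiquitin-conjugating enzyme (1.24 ± 0.09), Xiap, an inhibitor of caspases and a ligase (0.98 ± 0.10), and Tnip2, a ubiquitin-binding partner of A20 (0.97 ± 0.06), with limma adjusted p of 2.47e-07, 2.61e-06 and 2.83e-08. Birc2 was at 0.76 ± 0.07 (limma adjusted p = 8.88e-07) and Cyld, a deubiquitinase, at 0.61 ± 0.11 (limma adjusted p = 0.000487), while Birc3 was at 0.18 and Tnfaip3 at -0.13 (limma adjusted p = 0.0555 and 0.192). Both passed with quantile scaling (Birc3 0.19 and Tnfaip3 -0.25, limma adjusted p of 0.0376 and 0.024). They also passed with the deposited value table, whose values are nearly the same (0.18 and -0.25, limma adjusted p of 0.0439 and 0.0206). Scaled to the spike-ins, 3 of the 15 were higher and 6 lower, with a median of -0.08. On that scale 1550 of all 13169 genes were up and 8099 down, with a median of -0.57.

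Of 12 genes of kinases that check RIPK1 activity and of their partner proteins, 9 rose with LPS plus IFNγ, 1 fell and 2 did not pass the test, with a median of 0.53 (33.8% up and 35.2% down over all genes, whose median was -0.04). Tank, Azi2 and Tbk1, which encode the kinase TBK1 and its scaffolds, rose by 1.74 ± 0.09, 1.23 ± 0.08 and 1.11 ± 0.07 (limma adjusted p of 7.7e-09, 6.6e-08 and 5.01e-08). With emodin 4 rose, 3 fell and 5 did not pass the test, with a median of 0.14, which is near the shares of all genes (35.1% up and 36.8% down, median -0.01). Ikbke, a relative of TBK1, fell by 1.01 ± 0.09 (limma adjusted p = 1.35e-06), and the TAK1 partners Tab3 and Tab2 were at 0.84 ± 0.08 and 0.78 ± 0.10 (limma adjusted p of 1.31e-06 and 1.72e-05). With the spike-ins 0 were higher and 9 lower, with a median of -0.42. Of all 13169 genes, 1550 were up and 8099 down on that scale, with a median of -0.57.

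Genes that sense triggers of necroptosis or restrain it followed. With LPS plus IFNγ 10 of 12 rose and 2 fell, with a median of 0.75 (33.8% up and 35.2% down over all genes, whose median was -0.04). Zbp1, a sensor of Z-form nucleic acid that engages RIPK3 directly, rose by 5.04 ± 0.13 (33-fold, limma adjusted p = 3.51e-11). Eif2ak2, the double-stranded RNA kinase PKR, rose by 3.19 ± 0.17 and Adar, an RNA editing enzyme that limits ZBP1 ligands, by 2.04 ± 0.08 (limma adjusted p of 1.14e-08 and 1.13e-09). With emodin relative to LPS_IFNg 4 rose, 4 fell and 4 did not pass the test, with a median of -0.05, again near all genes (35.1% up and 36.8% down, median -0.01). Zbp1 was at -0.16 (limma adjusted p = 0.292), whereas Eif2ak2 fell by 2.05 ± 0.17 (limma adjusted p = 6.72e-07). Aurka, a mitotic kinase, fell by 2.71 ± 0.14 (limma adjusted p = 1.51e-08). Chmp2a, of the membrane repair complex ESCRT-III, was at 0.82 ± 0.11 (limma adjusted p = 3.3e-05). With quantile scaling Zbp1 was called lower with emodin, at -0.39 (limma adjusted p = 0.0154). With the spike-ins 0 of the list were higher and 8 lower, with a median of -0.61. Of all 13169 genes, 1550 were up and 8099 down on that scale, with a median of -0.57.

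Of 8 apoptosome genes, 3 rose with LPS plus IFNγ, 1 fell and 4 did not pass the test, with a median of -0.02, near the 33.8% up and the median of -0.04 over all genes, of which 35.2% were down. Cycs, cytochrome c, rose by 1.05 ± 0.10 and Diablo, which relieves caspases of their inhibitors, by 0.8 ± 0.08 (limma adjusted p of 1.5e-06 and 4.12e-06), and Apaf1, the scaffold of the apoptosome, by 0.33 ± 0.10 (limma adjusted p = 0.0116), with groups that overlapped. The Apaf1 call was lost with the 75th percentile over probes detected on all arrays (0.21, limma adjusted p = 0.0894) and with the replicate block on the 8 arrays compared (0.33, limma adjusted p = 0.0573). With emodin relative to LPS_IFNg 1 rose, 5 fell and 2 did not pass the test, with a median of -0.46 (35.1% up and 36.8% down over all genes, whose median was -0.01). Endog, a mitochondrial nuclease, fell by 1.22 ± 0.13 and Aifm1, apoptosis-inducing factor, by 0.6 ± 0.07 (limma adjusted p of 5.49e-06 and 1.32e-05). Apaf1 was at -0.23 (limma adjusted p = 0.0567), and it passed under some alternatives, among them the fit on the 8 arrays compared (-0.23, limma adjusted p = 0.0457).

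Of 12 executioner caspases and substrates, 5 rose with LPS plus IFNγ, 5 fell and 2 did not pass the test, with a median of -0.09 (33.8% up and 35.2% down over all genes, whose median was -0.04). The caspase substrates Gsn, gelsolin, and Gsdme, a pore-forming gasdermin, fell by 2.04 ± 0.09 and 1.98 ± 0.16 (limma adjusted p of 3.08e-09 and 3.73e-07). With emodin relative to LPS_IFNg none of the 12 rose, 7 fell and 5 did not pass the test, with a median of -0.85 (35.1% up and 36.8% down over all genes, whose median was -0.01). Gsdme fell by 2.78 ± 0.16 and Casp6 by 1.14 ± 0.11 (limma adjusted p of 2.71e-08 and 2.02e-06). Bid, the link from caspase-8 to mitochondria, was at -0.15 (limma adjusted p = 0.0799). Bid passed with normexp background correction (-0.32, limma adjusted p = 0.00254), quantile scaling (-0.21, limma adjusted p = 0.0125) and the percentile over probes detected on all arrays (-0.21, limma adjusted p = 0.0133). It also passed with the deposited value table, whose values are nearly those of quantile scaling (-0.21, limma adjusted p = 0.0109). With the spike-ins all 12 were called lower with emodin, with a median of -1.42. On that scale 1550 of all 13169 genes were up and 8099 down, with a median of -0.57.

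Of 12 other death-fold adaptors and regulators, 4 rose with LPS plus IFNγ, 3 fell and 5 did not pass the test, with a median of 0.08, near the shares of all genes (33.8% up and 35.2% down, median -0.04). Nol3, an inhibitor of death-receptor and mitochondrial apoptosis, rose by 4.08 ± 0.37, and Cradd, an adaptor of caspase-2, fell by 1.64 ± 0.11 (limma adjusted p of 1.12e-06 and 7.5e-08). With emodin relative to LPS_IFNg 5 rose, 4 fell and 3 did not pass the test, with a median of 0.25 (35.1% up and 36.8% down over all genes, whose median was -0.01). Nol3 was on none of the LPS_IFNg_emodin arrays and was at least 20.7-fold lower (limma adjusted p = 1.04e-07), and Dedd2, a death-effector-domain protein, rose by 1.61 ± 0.10 (limma adjusted p = 6.1e-08). With the spike-ins 1 was higher and 6 lower, with a median of -0.31. Of all 13169 genes, 1550 were up and 8099 down on that scale, with a median of -0.57.

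Among the genes named from these lists, leaving out replicate 3 of both stimulated groups changed the call of Tnip2 in LPS_IFNg against control (0.13, limma adjusted p = 0.0785) and of Birc3 (0.27, limma adjusted p = 0.0125) and Azi2 (0.24, limma adjusted p = 0.0473) in LPS_IFNg_emodin against LPS_IFNg. Leaving out control replicates 3 and 4 changed the call of Tnip2 (0.16, limma adjusted p = 0.0615) and Endog (-0.33, limma adjusted p = 0.0396) in LPS_IFNg against control, and of Apaf1 (-0.23, limma adjusted p = 0.0329) and Bid (-0.15, limma adjusted p = 0.0437) in LPS_IFNg_emodin against LPS_IFNg.

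**Figure D5:**
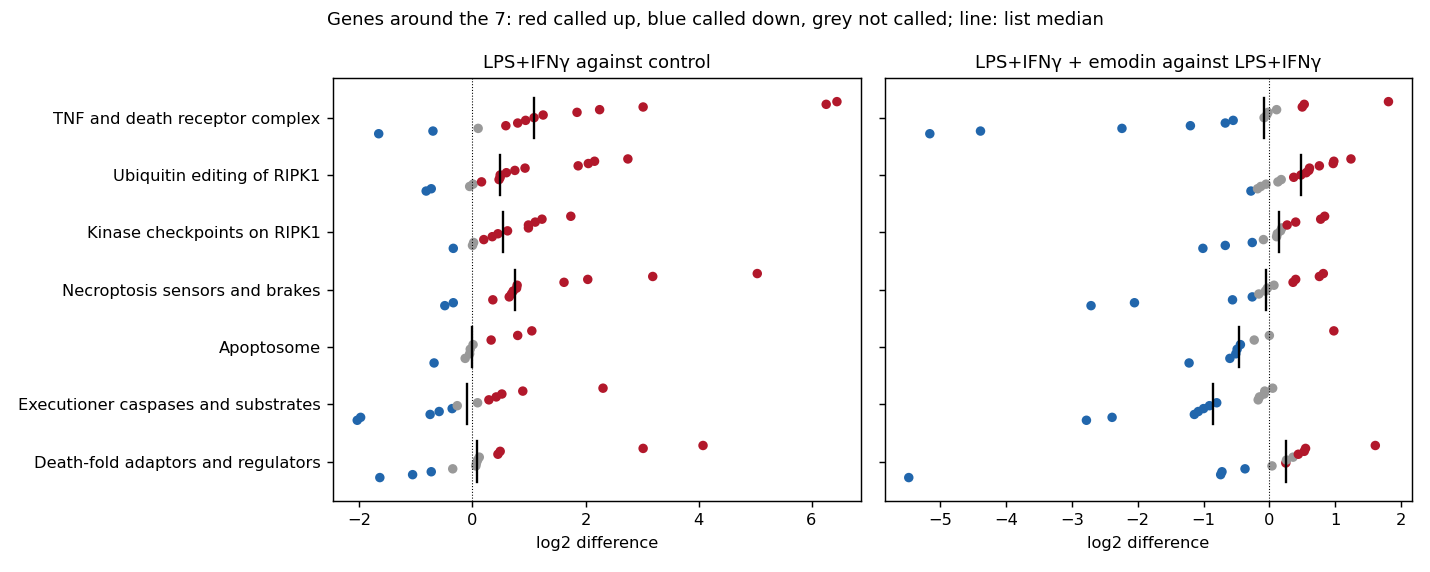
Log2 difference of each tested gene (points) in 7 gene lists around the 7 genes, in LPS+IFNγ against control and in LPS+IFNγ+emodin against LPS+IFNγ, with red for called up, blue for called down, grey for not called and a black line at the median of the list. The medians in the second comparison run from -0.85 for the executioner list to 0.48 for the ubiquitin list. With spike-in scaling all 7 medians are below 0, as is the median of all genes (-0.57).

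Over the 12 arrays, each gene was also set beside the tested genes with the most similar profile, as a description over arrays that share slide and group. Ripk3 was most like Rcn1, Sqor and 4932415M13Rik, with Pearson r of 0.9909, 0.9901 and 0.99. Mlkl was most like Nt5c3, Stxbp3 and AA467197, with r of 0.9974, 0.9958 and 0.9953. Ripk1 was most like Capza1, Tmem239 and Fam160b2, with r of 0.9952, 0.995 and 0.9949. Cflar was most like Rmdn3, Rnf19b and Tnfrsf9, with r of 0.9972, 0.9968 and 0.9965. Fadd was most like Slc35a5, Vps25 and Bcas2 (r of 0.9822, 0.9801 and 0.98), Casp9 most like Dgkg, Acbd5 and Ak8 (r of 0.9885, 0.9875 and 0.9875), and Casp8 most like Ptpn14, Fanci and Ppm1k (r of 0.9393, 0.9304 and 0.9291). The 12 points share 3 group means and 2 slides. Dgkg was at -5.9 on LPS_IFNg and -5.97 on LPS_IFNg_emodin arrays, and 4932415M13Rik at -5.35 on LPS_IFNg_emodin arrays. Nol3, on none of the LPS_IFNg_emodin arrays, was at -5.1 there, so these likenesses may rest in part on background signal.

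Among the 7 genes themselves, Ripk1, Mlkl and Cflar had r of 0.93 to 0.98 with each other over the 12 arrays, and Fadd and Casp9 had r of 0.92. Ripk3 had r of 0.11 with Ripk1, 0.16 with Cflar, 0.43 with Mlkl and 0.63 with Casp8, and Casp8 had r of 0.64 with Ripk1 and 0.65 with Cflar. Cflar and Casp8 are neighbours on chromosome 1 with 1 annotated gene between them, the non-coding RNA gene Gm39646, which was not tested. The LPS_IFNg differences from control were 3.57 for Cflar and 0.48 for Casp8.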

How the data were processed

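The authors deposited scanner files of one-colour Agilent arrays with an intensity for each spot. Per the submitters' processing notes these came from Agilent Feature Extraction 10.7.3.1. Per the file headers, the processed signal used here had background subtracted and no normalisation between arrays. A deposited value table holds log2 values. Quantile scaling of the log2 signals and subtraction of each probe's centre gave the same values to within a median of 0.0109 per column, and higher values mean more signal. Column medians were -0.0316 to 0.0416. In that table, control columns 1, 3 and 4 hold the values of scanner files 4, 1 and 3 of the same group, and it was used only as an alternative.

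Of 62976 spots per array, 59305 were not controls, and 78 to 415 with an outlier flag were left out. After averaging the spots that share a probe, log2 signals were set relative to the array's 75th percentile over probes. The filter kept 27380 of 55681 probes, those well above background in all 4 replicates of some group. Accessions were matched to RefSeq names of GRCm38.p6 with versions removed, and no probe coordinates were used because the array design is on mm9. A symbol was found for 27509 probes, 17168 of them kept, and the probe with the highest mean stood for each of 13169 genes. Where a probe was on no array of the dimmer group, a bound is given, taken against the probe's signal or the lowest well-above-background signal of the array, whichever was higher.

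Group means of the 12 arrays were fitted with limma (version 3.58.1, R version 4.3.3), with 9 residual and 2.5 prior degrees of freedom. Genes with a two-sided Benjamini-Hochberg adjusted p under 0.05 over all 13169 were called. The code was tested on simulated data. Permutation tests used scipy 1.17.1. The number of arrays limits the precision.

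The 7 members, 7 gene lists with 84 genes (82 tested, Fas and Xiap in 2 lists each) and the marker lists were chosen with earlier results of these data known. The rule for named genes takes all members and their probes, per list and comparison the 3 called genes with the largest difference, 11 pathway genes whatever their values, and the 3 most similar genes per member. Alternatives changed the background correction, scaling, filter, probe choice, samples in the fit and replicate block. Some genes that the rule names only for LPS_IFNg_emodin against control are not described. Other genes of the rule are not reported here. The normexp alternative used median in place of mean spot signals. Added after seeing the data were a scaling over the detected spike-ins only and a fit without control replicates 3 and 4.

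Same-numbered LPS_IFNg_emodin and LPS_IFNg arrays deviated together (r of 0.23, 0.28, 0.16 and 0.15 over genes). The numbers in the titles were therefore taken to pair these groups. The main fit used group means and left this pairing out. With the replicate number as a block, Ripk3 and Mlkl stayed called lower with emodin and Casp8 did not. For LPS_IFNg and control r was 0.14, -0.07, -0.02 and -0.14, and they were not taken as paired.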

Additional observations from a re-analysis of the deposited data

Results flagged for a closer look

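Of 27 sets of 4 arrays (9 probes in 3 groups) examined for an array far from the others, 1 passed Dixon's 95% criterion, and chance passes about 1 in 20. In control, Casp9 of replicate 3 was at 4.34 while the other 3 arrays were at 4.64, 4.64 and 4.68, a gap of 0.865 of the whole range. That array is labelled male and had Xist and no Y-linked signal. Without it and control replicate 4, the Casp9 difference between LPS_IFNg and control was -1.08 (limma adjusted p = 1.07e-06), against -1.02 with all arrays.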

How the results depend on the processing

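In LPS_IFNg against control, 7 of 7 members kept their direction and call under every alternative run, as did Ripk3 and Mlkl in LPS_IFNg_emodin against LPS_IFNg. In that second comparison, scaling to the spike-ins called 7 members, all lower, against 3 with the 75th percentile. Against all 10 spike-ins, Ripk1 turned to -0.52, Fadd to -0.4, Casp9 to -0.55, Birc3 to -0.38, Rnf31 to -0.44, Azi2 to -0.38, Tbk1 to -0.44, Adar to -0.16 and Fas to -0.04. Against the 7 spike-ins well above background on all arrays, an alternative chosen after seeing the data, they were -0.62, -0.5, -0.65, -0.48, -0.54, -0.47, -0.54, -0.26 and -0.13, in the same order, and Cyld was -0.06. The median of all genes was then -0.57 and -0.67. Quantile scaling or the deposited value table added Fadd as called up, which gave 4 members called. The replicate block left 2 called, Ripk3 and Mlkl, on the 12 arrays and on the 8 compared, as did the 8 arrays without the block, and in the other 2 comparisons it changed no member's call. Leaving out 1 array at a time gave 2 to 4 members called in LPS_IFNg_emodin against LPS_IFNg, 6 to 7 in LPS_IFNg_emodin against control and 7 in LPS_IFNg against control. Without a filter on dim probes, calls in LPS_IFNg against control were 7843 up and 4780 down, against 4448 and 4634. The cause of these changes was not tested. All 9 member probes were well above background on all 12 arrays, so signal over background did not limit these values to bounds.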
